A study of Mus musculus with 16 samples.

Results

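The Sonic hedgehog pathway was examined through 9 genes in mouse cerebellum: the ligand Shh, the receptor Ptch1, the decoy receptor Hhip, the signal transducer Smo, the inhibitor Sufu, the transcription factors Gli1, Gli2 and Gli3, and the target Mycn. The genes were taken by name from the arrays' own annotation, with every probe kept, which gave 18 probes of the 41174 non-control probes and 9 of the 17983 genes tested. Cerebella of 4 Npc1-/- mice and 4 wild-type mice, all 3 weeks old and on the BALB/cNctr-Npc1m1N/J strain background, were each measured on 1 Agilent one-colour array. The Npc1 protein sits in the lysosomal membrane and exports cholesterol, and the Npc1m1N mutation is a constitutive one that acts in every cell type of the animal. The animals came from in-house breeding and were genotyped from tail DNA. Whole cerebellar RNA was used, so a level in these data is a mean over all cell types of the tissue. The other 8 arrays of the series, on a bead platform whose table gives probe numbers without gene names, were not used here.

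In the hedgehog pathway, secreted Shh binds Ptch1, which then stops holding back Smo, and active Smo frees the Gli proteins from Sufu to act on target genes. In the cerebellum Purkinje cells secrete Shh, and the ligand drives division of granule cell precursors in the outer layer during early postnatal life. Cholesterol takes part at several steps: Shh carries a cholesterol group, Smo binds sterols, and Ptch1 belongs to the same family of sterol-sensing membrane proteins as Npc1. Ptch1, Hhip and Gli1 are themselves targets of the pathway, and their transcripts are widely used as a readout of its activity.

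Some of the 60-base probes are shown here because they give a second reading of Smo, Sufu and Mycn, beside the probe that represents each of those genes, and the only reading of Gli1. Each sequence holds at least 1 forward reading frame without a stop codon, and they are given in lower case, 5′ to 3′, as on the array. Positions follow the array files and refer to mouse build mm7.
Smo, chr6:29687728-29688961, plus strand: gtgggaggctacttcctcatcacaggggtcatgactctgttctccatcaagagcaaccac
Sufu, chr19:46351403-46351462, plus strand: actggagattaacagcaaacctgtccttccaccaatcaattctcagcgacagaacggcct
Gli1, chr10:126832331-126832390, minus strand: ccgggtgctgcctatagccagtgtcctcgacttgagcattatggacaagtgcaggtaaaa
Mycn, chr12:13000197-13000256, minus strand: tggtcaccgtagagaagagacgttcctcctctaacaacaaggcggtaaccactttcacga
The Smo probe spans 1234 genomic bases for its 60 bases, so its target crosses a splice junction. No annotation of the mm7 build was used here, and the exon or untranslated region that each other probe reads is therefore not given.

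All values below are log2 of the processed signal relative to the 75th percentile of the same array, and differences are Npc1-/- minus wild type with the standard error (SE) from limma. Testing required a signal well above background on 4 or more of the 8 arrays, which 15 of the 18 hedgehog probes had. The 3 others, 1 each of Smo, Sufu and Gli3, were not well above background on any array, and for genes with several probes the brightest one represented the gene. Across arrays 22182 to 28137 probes were well above background, with the fewest on wild-type replicate 2. The mutated gene bore out the labels: Npc1 ranged from -2.60 to -2.32 in Npc1-/- and from -0.64 to -0.37 in wild-type mice, a difference of -1.99 (limma, adjusted p = 0.00045). Nothing in the labels gives the litters or sexes of these mice, and with 4 arrays per group every p-value reflects only how far these 8 mice differed among themselves.

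None of the 9 hedgehog genes passed the limma test at an adjusted p of 0.05, against 0.767% of all 17983 genes (0.734% higher and 0.0334% lower in Npc1-/-). The median difference of the 9 genes was -0.09, beside -0.02 over all genes, with 4 genes above 0 and 5 below. That median was 0.06 without Npc1-/- replicate 1, 0.01 without wild-type replicate 1 and 0.06 without wild-type replicate 2. At an unadjusted p under 0.05 there was 1 hedgehog gene, Hhip, against 7.4% of all genes. Hhip was also the 1 gene of the 9 whose Npc1-/- and wild-type values did not overlap, beside 4.92% of all genes in either direction and 1.95% lower in Npc1-/-. For the 7 genes other than Hhip and Ptch1, the representing probe's 95% confidence interval held no change above 1.39-fold in either direction. Other tested probes of these genes had wider intervals, the widest for Mycn, from -1.41 to 0.16 log2.

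**Figure D1:**
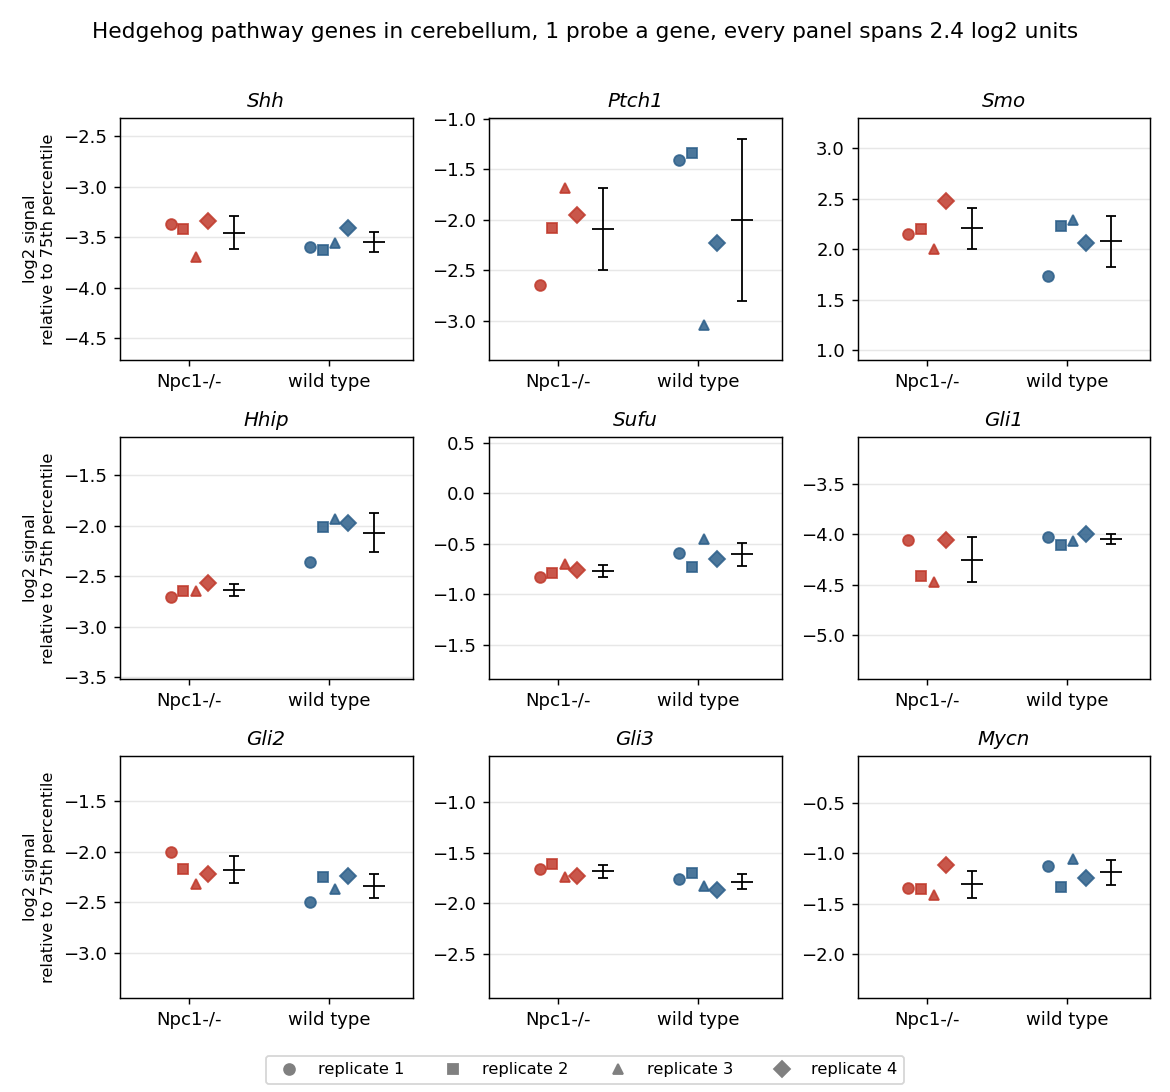
Log2 signal of each hedgehog gene relative to the array's 75th percentile (y axis, 2.4 log2 units in every panel) in 4 Npc1-/- mice (left, red) and 4 wild-type mice (right, blue), with mean ± SD in black and the replicate number given by the symbol. The Hhip groups do not overlap, Npc1-/- values lying from -2.71 to -2.56 and wild-type values from -2.36 to -1.93, and the groups of the other 8 genes overlap.

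Shh, the secreted ligand, was read by 1 probe printed at 10 spots of each array (chr5:27489898-27489957, minus strand). Its values were -3.37, -3.42, -3.69 and -3.34 in the Npc1-/- mice, against -3.59, -3.63, -3.56 and -3.41 in the wild-type mice. Npc1-/- replicate 3 was the lowest of all 8, the other Npc1-/- values were above most wild-type values, and the groups overlapped. The mean was -3.46 ± 0.16 in Npc1-/- and -3.55 ± 0.10 in wild type (SD, n = 4 each), a difference of 0.09 ± 0.11 (SE; 95% interval -0.16 to 0.34; limma, adjusted p = 0.796). Under quantile normalization the difference turned to -0.02. The repeated spots of the probe had a median SD of 0.123 within an array, ranging from 0.0932 to 0.294, beside 0.162 between Npc1-/- mice and 0.0991 between wild-type mice.

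Ptch1, the Shh receptor, had probes that differed in how steady they were. The brighter one, a single spot (chr13:61331255-61331314, minus strand), read -2.65, -2.08, -1.69 and -1.95 in the Npc1-/- mice, against -1.41, -1.34, -3.04 and -2.23 in the wild-type mice. Wild-type mice held both the highest and the lowest value, and their SD of 0.80 was the widest among the probes that represented the 9 hedgehog genes. The difference was -0.09 ± 0.39 (95% interval -0.97 to 0.79; limma, adjusted p = 0.948). It turned to 0.10 without Npc1-/- replicate 1, to 0.11 without wild-type replicate 1 and to 0.13 without wild-type replicate 2. Within slides it was 0.96 on slide 2 and -0.96 on slide 3.

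The dimmer Ptch1 probe, printed at 10 spots (chr13:61333864-61333923, minus strand), read -2.85, -3.30, -3.05 and -3.19 in the Npc1-/- mice, against -2.86, -3.09, -3.11 and -3.09 in the wild-type mice. The highest values of the groups were nearly equal and the groups overlapped. The difference was -0.07 ± 0.12 (95% interval -0.35 to 0.21), with a limma adjusted p of 0.891 over the 27164 probes tested. Its repeated spots had a median SD of 0.0781 within an array, and its SD between mice was 0.194 in Npc1-/- and 0.119 in wild type. The interval of this 10-spot probe was narrower than that of the single spot.

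Hhip, a membrane protein that binds hedgehog ligands and takes them away from Ptch1, gave the lowest difference of the 9 genes. On the brighter probe (chr8:78511903-78511962, minus strand) it read -2.71, -2.64, -2.64 and -2.56 in the Npc1-/- mice, against -2.36, -2.01, -1.93 and -1.97 in the wild-type mice. All 4 Npc1-/- values lay below all 4 wild-type values, and wild-type replicate 1 was nearest to the Npc1-/- group. The mean was -2.64 ± 0.06 in Npc1-/- and -2.07 ± 0.19 in wild type (SD, n = 4 each), a difference of -0.57 ± 0.11 (95% interval -0.83 to -0.31), or a signal 1.49-fold lower in Npc1-/-. The limma adjusted p was 0.0756, short of the threshold, and 193 genes (1.07% of those tested) had a smaller p.

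The other Hhip probe (chr8:78506418-78506477, minus strand) read -5.18, -4.54, -4.88 and -5.29 in the Npc1-/- mice, against -4.40, -4.19, -4.39 and -4.25 in the wild-type mice. Again the groups did not overlap, although this probe was near background and not well above it on Npc1-/- replicate 4 and wild-type replicate 2. The difference was -0.67 ± 0.17 (95% interval -1.05 to -0.29; limma, adjusted p = 0.24 over all probes). Both probes read the same RNA samples and are no independent replicates. Where slides held both genotypes, the brighter probe differed by -0.71, -0.62 and -0.29 on slides 2, 3 and 4 and the dimmer one by -0.16, -1.04 and -0.47, each resting on 1 wild-type array.

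An exact permutation test of the brighter probe's 8 values gave p = 0.0286, the smallest this design allows, with no adjustment for the number of genes. The adjusted p was 0.0168 with array weights, a setting that called 1.56% of all genes, and 0.029 without wild-type replicate 1. A slide block gave 0.283, and it was 0.256 with no filter on dim probes and 0.229 with the replicate number as a block. Over 17 alternative fits the Hhip difference lay between -0.67 and -0.51, its adjusted p between 0.0168 and 0.283, and 2 fits passed the threshold. In whole tissue, fewer cells of a type and less RNA per cell cannot be told apart.

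Cell type markers also differed between the genotypes. The summed signal of 10 oligodendrocyte genes was 249 to 302 times the 75th percentile in Npc1-/- and 330 to 435 times in wild-type mice. Among them Mbp, which encodes myelin basic protein, differed by -0.19 (limma, adjusted p = 0.752). The median of the list was -0.59, none of its genes passed the limma test, 8 had an unadjusted p under 0.05 (7.4% of all genes) and 7 had groups that did not overlap, all lower in Npc1-/- (1.95% of all genes). With array weights 7 passed, beside 0.295% of all genes lower in that fit. For 10 microglia and macrophage genes the sums were 12.4 to 15.7 in Npc1-/- and 5.69 to 7.60 in wild type. In that list 4 genes passed, all higher (0.734% of all genes): the lysosomal protein Cd68 by 2.08, the lipid receptor Trem2 by 1.49, its adaptor Tyrobp by 1.31 and the complement gene C1qa by 1.23. The other 6 did not pass, among them Tmem119 (0.14), P2ry12 (0.25) and Csf1r (0.47), though all 10 differences were positive. Every marker of both lists passed the background filter, so none was at 0, and their part in the Hhip difference was not tested.

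**Figure D2:**
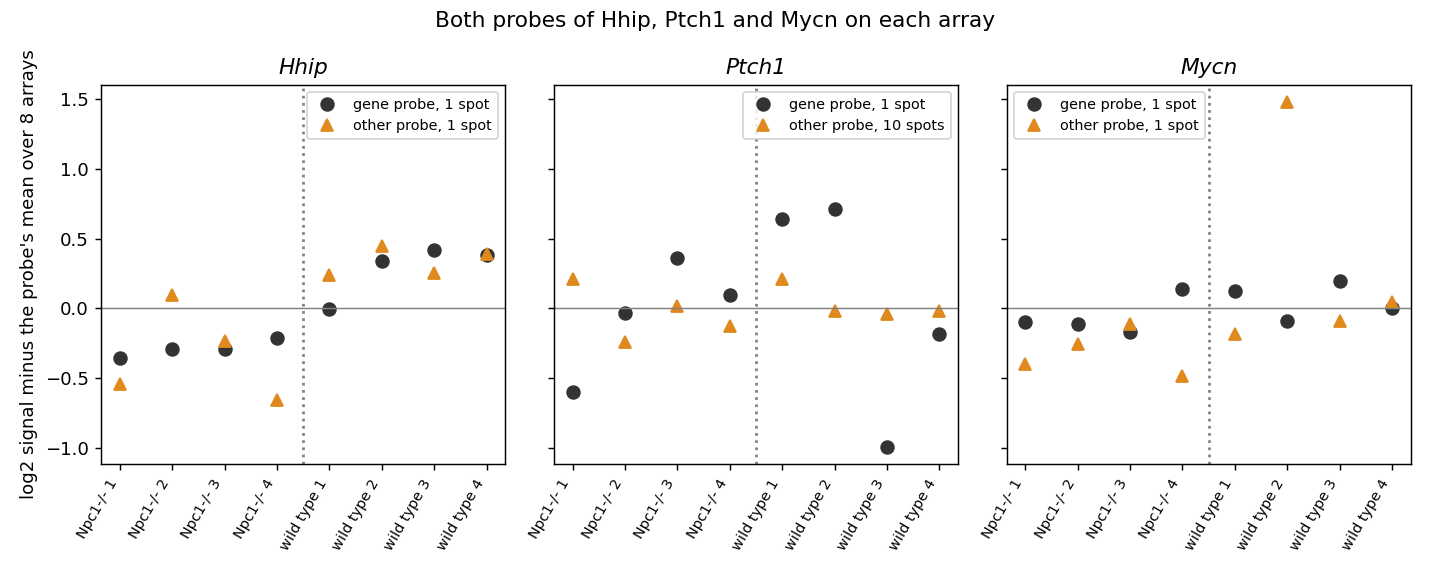
Log2 signal of both probes of Hhip, Ptch1 and Mycn on each array (x axis: 4 Npc1-/- arrays left of the dotted line, 4 wild-type arrays right of it), centred on each probe's own mean over the 8 arrays, with circles for the probe used for the gene and triangles for the other. Both Hhip probes are low in Npc1-/- arrays apart from replicate 2 of the dimmer one, the single-spot Ptch1 probe scatters far more than the 10-spot one, and the dimmer Mycn probe stands high on wild-type replicate 2.

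Smo, the membrane protein that carries the signal into the cell, was represented by its probe at chr6:29693371-29693430 (plus strand). That probe read 2.15, 2.20, 2.00 and 2.48 in the Npc1-/- mice, against 1.73, 2.24, 2.30 and 2.07 in the wild-type mice. Values of the groups interleaved, with Npc1-/- replicate 4 highest and wild-type replicate 1 lowest. The difference was 0.12 ± 0.15 (95% interval -0.23 to 0.48; limma, adjusted p = 0.802). It was 0.0078 without wild-type replicate 1, 0.03 without Npc1-/- replicate 4 and -0.10 within slide 2. The junction-spanning probe printed above differed by 0.25 ± 0.29 (adjusted p = 0.835) and was not well above background on wild-type replicate 2. A Smo probe at chr6:29670061-29670120 was not well above background on any array.

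Sufu, which holds Gli proteins in the cytoplasm, read -0.83, -0.79, -0.70 and -0.76 in the Npc1-/- mice, against -0.60, -0.73, -0.45 and -0.65 in the wild-type mice (chr19:46385251-46385310, plus strand). Npc1-/- replicates 1, 2 and 4 lay below the wild-type range and Npc1-/- replicate 3 lay inside it. The difference was -0.17 ± 0.09 (95% interval -0.37 to 0.04; limma, adjusted p = 0.752). The second probe, whose sequence is given above, differed by -0.16 ± 0.22 (adjusted p = 0.86), and the third (chr19:46380235-46380294) was dim on all 8 arrays.

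Gli1, an activator and at the same time a target of the pathway, was read at 10 spots. It stood at -4.06, -4.41, -4.48 and -4.06 in the Npc1-/- mice, against -4.03, -4.11, -4.07 and -3.99 in the wild-type mice. The wild-type mice were tightly grouped, Npc1-/- replicates 1 and 4 lay beside them and Npc1-/- replicates 2 and 3 lay below. The difference was -0.20 ± 0.12 (95% interval -0.48 to 0.08; limma, adjusted p = 0.752). The SD between mice was 0.224 in Npc1-/- and 0.0485 in wild type, and the repeated spots had a median SD of 0.123 within an array. Npc1-/- replicates 1 and 4 shared slide 3 with wild-type replicate 2, and there the difference was 0.05, beside -0.34 on slide 2 and -0.44 on slide 4. Wild-type replicate 2 was the array on which the probe was not well above background.

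Gli2, the main activator downstream of Smo, read -2.005, -2.17, -2.32 and -2.22 in the Npc1-/- mice, against -2.49, -2.25, -2.37 and -2.24 in the wild-type mice (chr1:118695197-118695256, minus strand). Npc1-/- replicate 1 was the highest and the groups overlapped. The difference was 0.16 ± 0.10 (95% interval -0.08 to 0.40; limma, adjusted p = 0.752), and it was 0.19, 0.14 and 0.17 within slides 2, 3 and 4. It shrank to 0.08 under quantile normalization, to 0.016 with normexp correction as well, and to 0.0046 as a mean over both probes. The other Gli2 probe was well above background on 4 arrays and differed by -0.15 ± 0.25.

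Gli3, which in the absence of ligand is cut to a repressor, had the smallest SE of the 9 genes. It read -1.66, -1.60, -1.74 and -1.73 in the Npc1-/- mice, against -1.75, -1.70, -1.82 and -1.87 in the wild-type mice (chr13:15096631-15096690, plus strand). Only wild-type replicate 2 reached into the Npc1-/- range. The difference was 0.10 ± 0.08 (95% interval -0.09 to 0.30; limma, adjusted p = 0.752), and it was 0.05 under quantile normalization and 0.03 with normexp correction as well. A 10-spot Gli3 probe (chr13:15093858-15093917) was dim on all 8 arrays.

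Mycn, a transcription factor that hedgehog signalling induces in dividing granule cell precursors, read -1.35, -1.36, -1.42 and -1.11 in the Npc1-/- mice, against -1.12, -1.34, -1.05 and -1.24 in the wild-type mice (chr12:12999078-12999137, minus strand). Npc1-/- replicate 4 lay high among the wild-type values, and the groups overlapped. The difference was -0.12 ± 0.11 (95% interval -0.36 to 0.12; limma, adjusted p = 0.755). The probe printed above read -5.03, -4.88, -4.74 and -5.11 in the Npc1-/- mice, against -4.81, -3.15, -4.72 and -4.58 in the wild-type mice. Wild-type replicate 2 stood far above the others, and the difference was -0.63 ± 0.34 (adjusted p = 0.811). With the probes of a gene averaged, Mycn differed by -0.37 (adjusted p = 0.66).

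**Figure D3:**
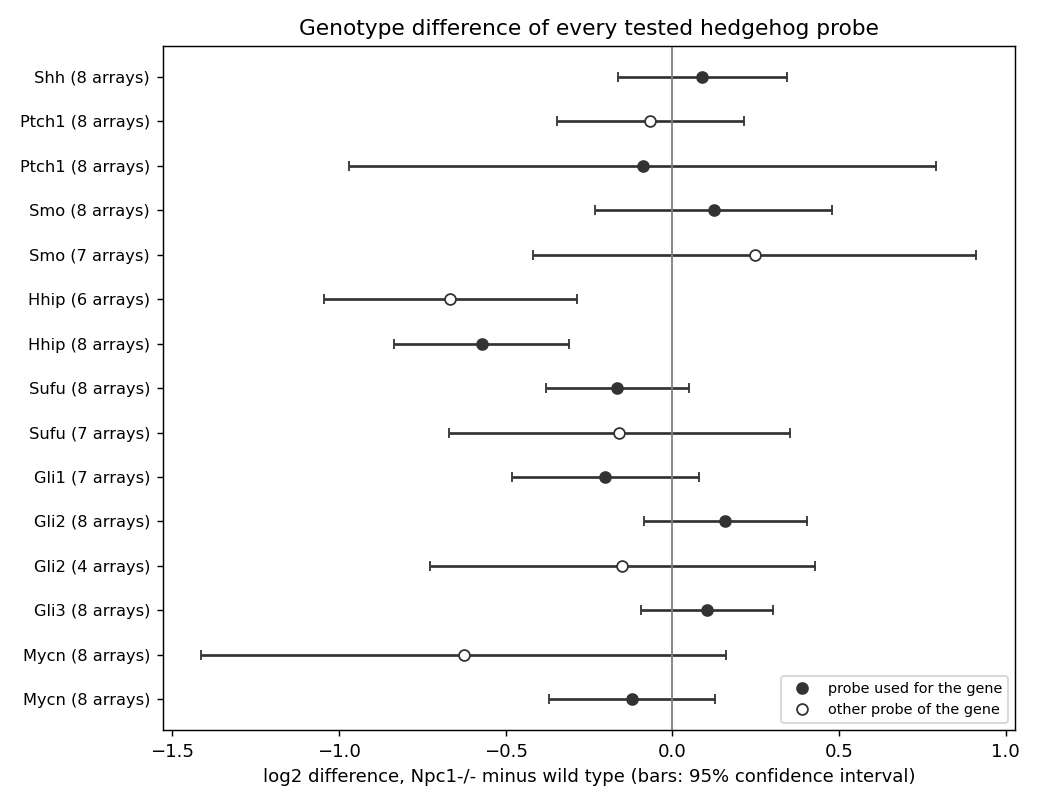
Difference of each of the 15 tested hedgehog probes, Npc1-/- minus wild type (x axis, log2), with 95% confidence intervals from limma over all probes, filled circles for the probe used for each gene, and in brackets the number of arrays on which the probe was well above background. Only the intervals of both Hhip probes leave out 0, before any adjustment for the number of probes tested.

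Of the 6 genes with more than 1 tested probe, 5 had all tested probes on the same side of 0, and Gli2 was the other. Probes of a gene read the same RNA samples, and the share of such genes over the whole table was not counted. Fitted over all 27164 probes, none of the 15 hedgehog probes passed the adjusted threshold, against 0.523% of all probes. At an unadjusted p under 0.05 there were 2, both of Hhip. The share over all probes at that cut-off was not counted, and over all genes it was 7.4%. The bright Hhip probe had an adjusted p of 0.102 in that fit.

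Other genes of ligand release and reception stayed short of the threshold, with 12 of 15 measured, none past it and a median of 0.02. At an unadjusted p under 0.05 (7.4% of all genes) there were 2, Gpc3 and Scube2. Ihh, Cdon and Scube3 were not above background on enough arrays. Low differences included those of the co-receptor Boc (-0.14) and the endocytic receptor Lrp2 (-0.11). The highest were those of Gpc3, a glypican that binds hedgehog ligands (0.40), Scube2, which helps release Shh (0.36), and the ligand Dhh (0.30). Scube2, Dhh and Lrp2 were near background, each well above it on 4 Npc1-/- and 3 wild-type arrays.

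Genes of the primary cilium and the signal relay behind Smo gave differences close to 0. All 24 measured of 25 were short of the limma threshold, 0 had an unadjusted p under 0.05 and the median was 0.00; Dyrk2 had no probe. The lowest were -0.22 for Adrbk1, the kinase that phosphorylates Smo, -0.19 for the cyclase Adcy5 and -0.10 for the ciliary kinesin Kif7. The highest were 0.16 for Evc, 0.18 for Spop and 0.35 for Gpr161, a ciliary receptor that restrains the pathway. Gpr161 was near background, well above it on 4 Npc1-/- and 3 wild-type arrays.

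Among 15 genes described elsewhere as hedgehog targets, 14 were measured, none passed and the median was 0.08. Foxf1 was not above background. At an unadjusted p under 0.05 (7.4% of all genes) there were 5, in both directions. Ccnd1 and Nkx2-2 were lower and Cdk6, Igf2 and Prdm1 higher in Npc1-/-. The cell cycle kinase Cdk6 (0.36, adjusted p = 0.482) was higher in every Npc1-/- mouse than in any wild-type mouse, and Ccnd1, cyclin D1, was lower in every one (-0.39, adjusted p = 0.502). Prdm1 differed by 0.79 (adjusted p = 0.175) with groups that did not overlap, but it was well above background on 3 Npc1-/- arrays and 1 wild-type array, so it met the filter mainly through the group where it was high. The share of non-overlapping genes in the whole table was 2.96% higher and 1.95% lower. Nkx2-2 (-0.59) and Bmi1 (-0.28) were also among the 3 lowest and Igf2 (0.42) among the 3 highest, and Ccnd2, a cyclin of granule cell precursors, differed by 0.25.

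Division genes, listed here for granule cell precursors, were short of the threshold too, with 15 of 20 measured. At an unadjusted p under 0.05 (7.4% of all genes) there were 5. Beside -0.02 over all genes, the median was -0.21 for the 15 measured genes. Of these, 12 were below 0 and 3 above, and 4 had groups that did not overlap, all lower in Npc1-/- (1.95% of all genes): the checkpoint kinase Bub1 (-1.06, adjusted p = 0.214), E2f1 (-0.41), Cdc20 (-0.36) and the replication helicase subunit Mcm5 (-0.35). Mki67, the proliferation marker, differed by -0.38. The highest were Ccnb2 (0.24), Rrm2 (0.19) and Plk1 (0.14). Bub1 and Rrm2 were near background, each well above it on 3 Npc1-/- and 3 wild-type arrays. Atoh1, the factor that defines the precursors, and Aurkb were well above background on 0 arrays, Ccnb1 on 1, and Top2a and Cdk1 on 3. These 5 genes have no tested value. With Atoh1 dim, whether the measured values come from precursors or from other dividing cells was not tested. Without wild-type replicate 3 the list's median was -0.10.

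Neuronal markers were mostly below 0. All 10 mature granule cell genes were below 0, with a median of -0.22 and none past the limma threshold. At an unadjusted p under 0.05 (7.4% of all genes) there were 3. The brightest of the 10 were the synaptic organiser Cbln1 (-0.21) and the NMDA receptor subunit Grin2c (-0.11). With each gene centred on its mean over all arrays, the list's median was highest on wild-type replicate 3, at 0.23. The 10 Purkinje cell genes, from the cells that secrete Shh, had a median of -0.22, none past the threshold and 0 at an unadjusted p under 0.05, with the calcium channel Itpr1 at -0.03 and the glutamate transporter Slc1a6 at -0.24. The Purkinje median was -0.12 without wild-type replicate 3, and also -0.12 with normexp correction and quantile normalization. Astrocyte and Bergmann glia genes had a median of -0.02 over 12, with none past the threshold. Of them, 3 had an unadjusted p under 0.05 (7.4% of all genes), and Aldoc differed by 0.00 and S100b by -0.15. The 3 genes at that unadjusted p, named here after their values were seen, went in both directions. Gfap, the intermediate filament of reactive astrocytes, differed by 1.08 (limma, adjusted p = 0.0516), Fabp7 by -0.59 and Sept4 by -0.23.

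**Figure D4:**
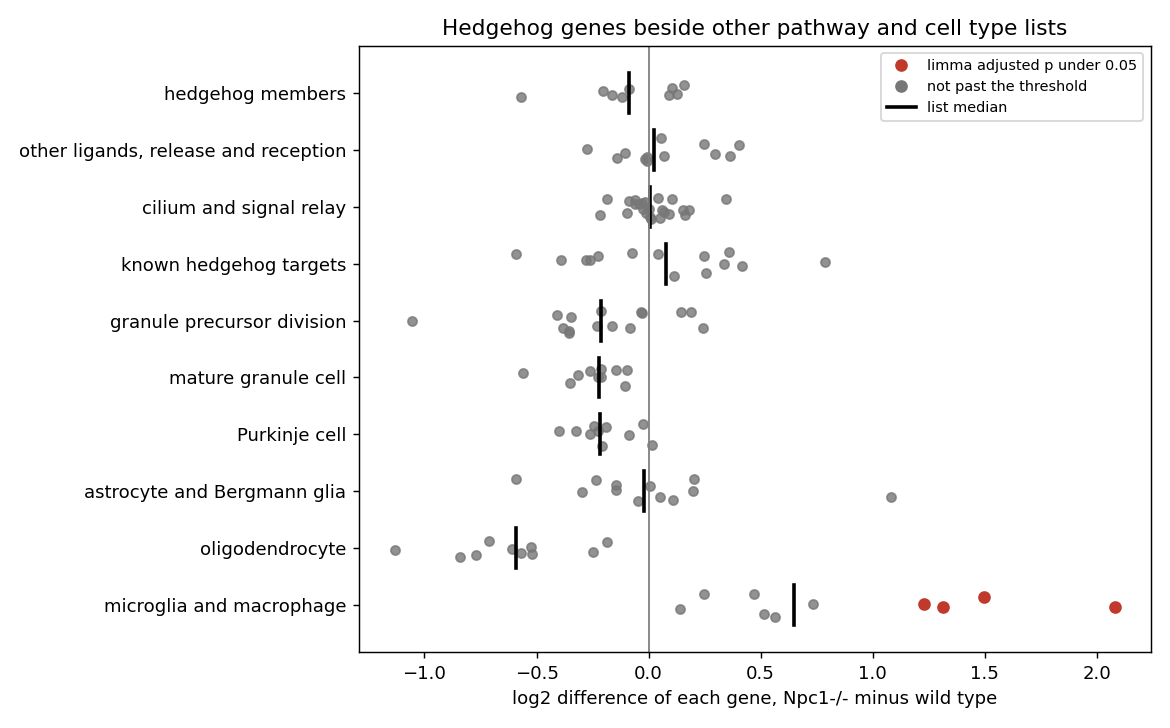
Log2 difference of each measured gene, Npc1-/- minus wild type (x axis), for the hedgehog genes and 9 other lists (rows), with red points for genes past a limma adjusted p of 0.05, grey points for the others and a black bar at each list's median. The hedgehog median is -0.09 and the ciliary one 0.00, the oligodendrocyte median is -0.59 and the microglial one 0.65, and the 4 red points are all microglial.

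Genes whose profile over the 8 arrays was nearest to that of a hedgehog gene were named by the root mean square difference between standardised profiles, among the 12578 other genes above background on every array (12579 for Gli1, which was itself dim on 1 array). For Shh these were Cbln2 (0.241), Syt17 (0.251) and Lef1 (0.289), for the single-spot Ptch1 probe 2410141K09Rik (0.251), Dnm2 (0.283) and Cep295 (0.312), and for Gli1 Qsox2 (0.312), Vezt (0.325) and Tram2 (0.367). For Hhip, added after its values were seen, they were Frmd8 (0.181), Tmem159 (0.181) and Gramd3 (0.197), which themselves differed by -0.49, -0.28 and -0.42 between genotypes (adjusted p = 0.155, 0.359 and 0.202). The direction of the differences of the genes near Hhip follows from how they were chosen, since the Hhip groups did not overlap. None of the 12 named genes passed the limma test between genotypes.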

How the data were processed

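Total RNA (500 ng) of 8 cerebella was labelled with Cy3 and hybridised to Agilent mouse arrays, per the labels' protocols. The deposited intensity values come from Agilent Feature Extraction 9.5, which the submitters' processing notes name; per the file headers they had background subtracted and spatial trends removed, without scaling across arrays. Flags for outlier spots and for spots well above background were deposited with them. Bead array intensity values of the same series, deposited with detection p-values and no gene names, were not used.

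The processed signal was divided by each array's 75th percentile over non-control spots and taken to log2. Outlier spots were set to missing, spots of a probe averaged, probes kept where 4 or more of the 8 arrays were well above background (27164 of 41174), and the brightest probe used for each of 17983 genes. Gene symbols were brought up to date with RefSeq's gene table for GRCm38.p6, and all 9 genes were found. The genotype test was limma's (version 3.58.1, R 4.3.3; lmFit, eBayes, two-sided, no other term), with Benjamini-Hochberg adjustment over all genes or probes. The fit was tested on simulated data without slide or array effects, so that test cannot speak for such effects here. Exact permutation tests used scipy 1.17.1 and plots matplotlib 3.10.9.

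Groups and replicate numbers come from the sample titles. Same-numbered arrays of both genotypes deviated from their group means with correlations of 0.15, 0.04, -0.44 and 0.20, so the numbers were not taken as pairs. The arrays lay on 4 slides, 3 of which held both genotypes: slides 2 and 4 carried 1 array of each, slide 3 carried Npc1-/- replicates 1 and 4 with wild-type replicate 2, and slide 1 only wild-type replicate 4. Pairwise correlations of arrays ran from 0.969 to 0.994. On the first principal component (47.0% of variance), Npc1-/- replicate 4 lay at 9.71, wild-type replicates 3 and 4 at 73.0 and 23.0, and the others from -36.5 to -10.4.

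Named genes are all 9 hedgehog genes with every probe and members past the threshold. The 3 highest and 3 lowest members of the pathway lists, and the 2 brightest of the cell type lists described, were also named. Non-overlapping genes and Ccnd2, Mki67, Gfap, Fabp7 and Sept4 were added after their values were seen. A few list genes covered by this choice are not reported here. Lists of choroid plexus (10 genes, 0 past the threshold, median -0.03) and of endothelium and meninges (10 genes, 1 past it, Ptgds at 0.96, past it in none of the 8 fits with an array left out; median 0.17) were also counted. The members and lists were chosen with earlier results of these data known. Background correction, normalization, filter, probe rule, slide, scan day, replicate number, array weights and each array left out were tried as alternatives.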

Additional observations from a re-analysis of the deposited data

Results flagged for a closer look

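In 4 of the 30 sets of 4 arrays examined (each tested hedgehog probe in each genotype), 1 array stood far from the others by Dixon's test, which chance does in about 1 in 20 sets. All 4 were in wild type. The 10-spot Ptch1 probe was highest on wild-type replicate 1, at -2.86. The junction-spanning Smo probe was lowest on wild-type replicate 1, at -5.12. The second Sufu probe was highest on wild-type replicate 2, at -3.61, and not well above background there. The dimmer Mycn probe was highest on wild-type replicate 2, at -3.15. Wild-type replicate 2 had the fewest probes well above background and the highest SD between repeated spots for Shh, Ptch1 and Gli1 (0.294, 0.147 and 0.215).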

How the results depend on the processing

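No hedgehog gene other than Hhip passed the threshold under any alternative fit. Shh reversed to -0.0152 with normexp correction plus quantile normalization and to -0.0233 with quantile normalization alone, and Ptch1 reversed without Npc1-/- replicate 1, wild-type replicate 1 or wild-type replicate 2 (range over single arrays left out -0.43 to 0.13); the cause was not tested. Hhip was -0.62 and past the threshold with array weights, lay between -0.67 and -0.53 with single arrays left out, and was -0.57 in the exact permutation test (p = 0.0286). Within slides the values rest on 2 or 3 arrays: Shh was 0.28 on slide 3 and -0.10 on slide 4; Ptch1 0.96 on slide 2 and -0.96 on slide 3; Hhip -0.29 on slide 4; Sufu -0.34 on slide 2 and -0.0706 on slide 3. Gli1 was 0.0474 on slide 3 and -0.44 on slide 4, Gli3 was 0.22, 0.0082 and 0.0177 on slides 2, 3 and 4, and Mycn was -0.31, 0.11 and -0.29. Over the whole table, 132 genes were higher and 6 lower. The numbers higher were 82 with quantile normalization, 56 with no filter on dim probes, 83 with a filter on all 8 arrays, 37 with the slide as a block and 227 with array weights; the numbers lower were 3 with no filter, 1 with the slide block and 53 with array weights. With the replicate number as a block, 26 genes were higher and 1 lower, and Hhip was -0.57 with an adjusted p of 0.229. With single arrays left out, 52 to 144 genes were higher and 2 to 8 lower. The number of hedgehog genes called was 1 with array weights and 0 to 1 with single arrays left out. With the filter on all 8 arrays Gli1 had no value. Signals near background, as for Gli1 and the dimmer Hhip probe, limit what these arrays can show. So does a single array that stands apart, as wild-type replicate 2 did for the dimmer Mycn probe.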
